A study of Mus musculus with 19 samples.

Results

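The comparison described here is desmin knockout against wild-type tibialis anterior muscle of mice aged 12 to 14 months. Members were chosen by genotype and age as labelled: 9 of the 19 arrays of the series, 4 from Des(-/-) mice and 5 from wild-type mice, all on the 129/SVE background. Every muscle had performed 50 eccentric contractions 12 hours before its RNA was taken. The other 10 arrays hold muscle of mice aged 7 to 9 weeks, 5 of each genotype, after the same contractions, and are used only where stated. Total RNA of whole muscle was hybridised to 1 array per sample, and whether each sample is a separate animal is not labelled, so the p-values reflect variation among the deposited samples and no more. The labels name the genotype but not how the allele was made, and no muscle without contractions is used here. A difference that was present before the contractions and a difference that arose after them therefore cannot be told apart.

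Desmin is the main intermediate filament protein of mature muscle fibres. Its filaments ring the Z-discs, tie neighbouring myofibrils together and link them to mitochondria, nuclei and the costameres at the fibre surface. The tibialis anterior of the mouse is built almost wholly of fast fibres, and eccentric contraction, in which an active muscle is stretched, is the form of use that strains this network most. Mice without desmin live to adulthood with a cardiomyopathy and skeletal muscles that degenerate most in heavily used and slow muscles.

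The tissue label was checked against fixed markers. All 10 skeletal muscle markers were tested and none read under 18558 signal units, as with Ckm, muscle creatine kinase, at 19624 to 26225 in wild-type and 25904 to 29257 in knockout samples. Of 5 heart muscle markers Myh6, Nppa, Myl7 and Tnni3 were too dim to be tested, reaching 91.0 units at most, and the atrial light chain Myl4 read 271 to 488 and 332 to 1603.

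Technical differences ran along the genotypes and touch every result below. Signal of the dap poly-A control RNA was 1184 to 3103 units on all 5 wild-type arrays and 1 to 17.4 on the 4 knockout arrays, and the 18S ribosomal RNA probe set read 14308 to 18170 against 49.0 to 90.6. Whatever produced these signals and genotype cannot be told apart within these 9 arrays. In the series 8 arrays carry control signal, the 5 aged wild-type and 3 of the 5 adult knockout arrays, so a term for control signal (the control term) rests on 3 against 2 adult knockout arrays. Knockout replicates 2 and 3 had Gapdh 3′ to 5′ ratios of 8.61 and 5.01, against 0.788 to 0.968 on the other 2 knockout arrays and 0.821 to 0.849 in wild-type samples. The first principal component of the 9 arrays held 58.1% of the variance and placed all wild-type arrays on one side and all knockout arrays on the other. Correlations between replicates were 0.961 to 0.979 among wild-type arrays and 0.900 to 0.964 among knockout arrays.

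**Figure D1:**
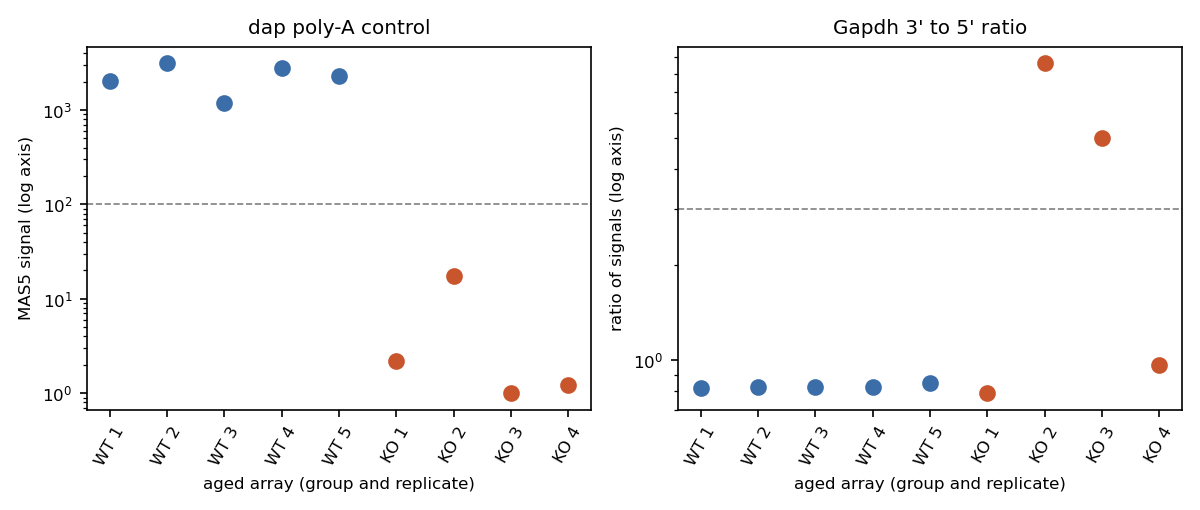
Signal of the dap poly-A control (left, MAS5 units, log axis, dashed line at 100) and ratio of the Gapdh 3′ to 5′ probe sets (right, log axis, dashed line at 3) on each of the 9 aged arrays, blue for wild-type and orange for knockout. All 5 wild-type arrays lie above the left line and no knockout array does, and knockout replicates 2 and 3, at 8.61 and 5.01, lie above the right line.

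Differences are knockout minus wild-type means of log2 signal after quantile normalisation, from limma fitted to all 19 arrays. Differences given for adult muscle are from the fit without the control term. In that contrast 3 of the 5 knockout arrays and no wild-type array carry control signal. Calls required an adjusted p under 0.05 (Benjamini-Hochberg, over all 7436 genes tested). Of these, 2190 genes were called, 29.5%: 1259 were higher in the knockout (16.9%) and 931 lower (12.5%). The median difference over all tested genes was 0.07 and the median standard error 0.23. The control term left 408 called genes (5.49%), 219 higher (2.95%) and 189 lower (2.54%), of which 240 were among the 2190 and in the same direction, a share of 10.96% of the first list and 58.8% of the second. Without knockout replicates 2 and 3, 1059 genes were called (14.2%), 498 higher (6.7%) and 561 lower (7.54%), and 950 of them kept their direction, 43.4% and 89.7% of the 2 lists. The signals of the 4 knockout and 5 wild-type samples did not overlap for 2321 genes (31.2%), 1344 with the knockout above and 977 below. Counts called in each gene list below are to be read beside the 16.9% higher and 12.5% lower of all genes tested.

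A set of 190 genes (2.56%) was called in the same direction in all 3 fits and had no overlap between the groups: 99 higher (1.33%) and 91 lower (1.22%). These are named the stable set below. Since the control term was part of their choice, its value is a description of them and no independent support. Of the 190, 151 were also called the same way with the control term and without the 2 arrays at once. Leaving out any single aged array kept 188 of the 190 calls in all 9 such fits. The set is less even across probe sets. Of 81 stable genes with more than 1 probe set tested, 61 had all of them of the same sign, against 617 of 879 called genes. With the mean of a gene's probe sets, 157 of the 181 stable genes present kept their call. The 4 knockout arrays lay above all 10 wild-type arrays of both ages for 72 of the 99 and below them for 67 of the 91, against 4.07% and 3.09% of all genes tested. The aged wild-type arrays among these were part of the choice, so these counts only describe the set. At the other end, 340 of the 2190 called genes had the opposite sign with the control term, 198 of them higher and 142 lower, and 690 more kept their sign at under 0.5 of the size. Knockout replicates 2 and 3 both lay below the other 2 knockout arrays for 64.1% of those 142 genes. That share was 28.8% among all called falls and 21.0% among all genes tested. Both lay above the other 2 for 55.1% of the 198, against 51.5% of all called rises and 38.1% of all genes tested.

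**Figure D2:**
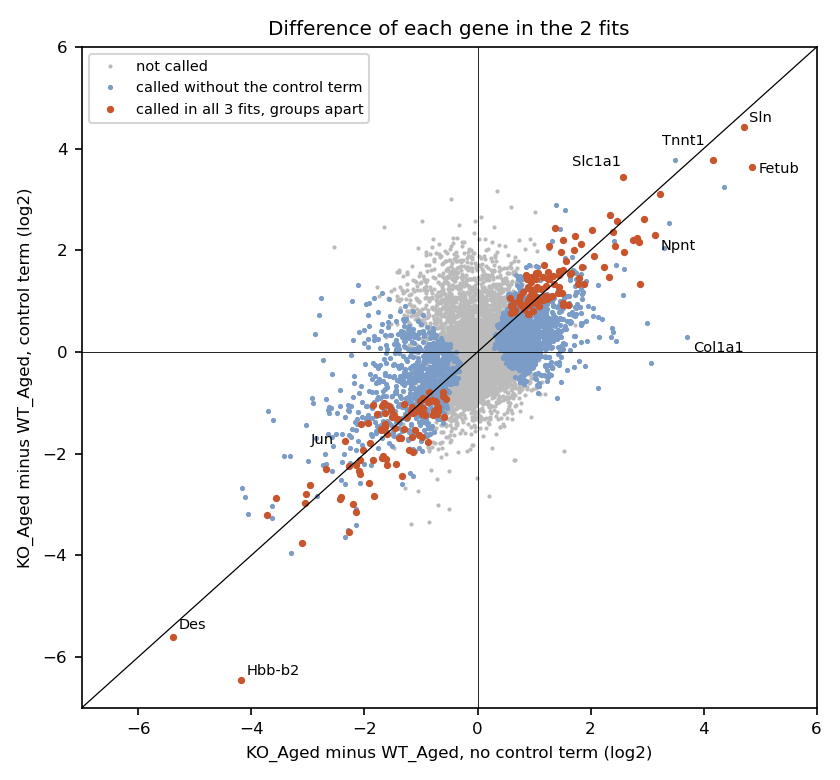
Each of the 7436 tested genes by its knockout minus wild-type difference without (x axis) and with (y axis) the control term, both in log2 units; blue points were called without the term, orange points belong to the stable set of 190, and the line marks equal values. Des and Sln lie near the line, while Col1a1 falls from 3.71 to 0.30.

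Desmin itself checks the labels. Its signal was 10749, 12736, 11010.0, 10981 and 11316 on the wild-type arrays and 636, 72.7, 295 and 397 on the knockout arrays. Every knockout array was far below every wild-type array, with means of 11358 ± 796 (SD, n = 5) and 350.2 ± 234 (SD, n = 4). The difference was -5.38 (SE 0.37, limma adjusted p = 9.98e-08), and the exact 2-sided permutation test over the 126 regroupings of the 9 arrays gave p = 0.00794, the smallest it can give. With the control term the difference was -5.61 and without the 2 arrays -4.65. The second Des probe set was lower as well, at 46.3 to 87.6 against 221 to 430.3.

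Of 16 listed genes of filaments and their linkers, 15 were measured and 10 tested. None of the 10 rose without the control term and 3 fell: Des, Lmnb1 (-0.83, a nuclear lamin) and Cryab (-0.41, the small heat shock protein αB-crystallin, which binds desmin). Cryab read 23902, 30612, 29177, 26404 and 28285 on the wild-type arrays and 22549, 23719, 21651 and 22389 on the knockout arrays. All 4 knockout values lay below the lowest wild-type value, by a modest margin. Neither Cryab nor Lmnb1 was called with the control term (adjusted p = 0.189 and 0.328). Vimentin, the filament of connective tissue and regenerating fibres, differed by -0.33 (adjusted p = 0.372), nestin by -0.80 (0.125) and plectin, the linker that anchors desmin to the Z-disc, by 0.18 (0.319). Syncoilin (Sync), a muscle filament protein, differed by 0.088, where knockout replicate 2 was lowest at 448, and was called with the control term at 1.73 (adjusted p = 0.0127). Lamin A/C (Lmna) was 0.53 higher and missed the threshold (adjusted p = 0.0548). Outside the list, and named after their values were seen, the keratin Krt80 and the filament family member Iffo1 were in the stable set, higher by 1.83 (SE 0.23) and 1.88 (SE 0.24).

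Slow fibre genes had the largest median rise of the lists. Of 17 listed genes 15 were tested, 9 rose and none fell, with a median difference of 2.35 against 0.07 over all genes. The median was 2.05 with the control term, where 4 of the 9 remained called, and 2.26 without the 2 arrays, where all 9 did. In whole muscle a change in the number of fibres or cells of a type and a change in RNA per cell cannot be told apart, here or below.

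Sarcolipin (Sln), a small membrane peptide that binds and uncouples the sarcoplasmic reticulum calcium pump, read 189, 1231, 581, 395 and 710.0 on the wild-type arrays and 10207, 13441, 16707 and 14606 on the knockout arrays. Every knockout array was far above every wild-type array, and the difference was 4.71 (SE 0.47, adjusted p = 3.74e-06), or 26.1-fold. Atp2a2, the calcium pump of slow fibres and heart, read 751, 702, 1006, 685 and 465 on the wild-type arrays and 3975, 5322, 2922 and 2659 on the knockout arrays. All 4 of its probe sets were higher in the knockout, the groups did not overlap, and the difference of 2.35 (SE 0.27) was 2.69 with the control term (adjusted p = 0.00538).

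The slow troponins rose together. Tnnt1, the tropomyosin-binding subunit, read 99.3, 70.5, 367, 99.7 and 39.0 on the wild-type arrays and 2465, 3108, 1179.8 and 1714 on the knockout arrays. Tnni1, the inhibitory subunit, read 70.6, 99.0, 262, 91.9 and 64.4 on the wild-type arrays and 2186, 1419, 699 and 849 on the knockout arrays, and Tnnc1, the calcium-binding subunit, read 151, 126, 464, 204 and 139 on the wild-type arrays and 2776, 2745, 1630.2 and 1275 on the knockout arrays. For each of the 3 the lowest knockout array lay above the highest wild-type array, which was replicate 3 every time, and the differences were 4.16 (SE 0.49), 3.38 (SE 0.50) and 3.29 (SE 0.47). Tnnt1 stayed called with the control term at 3.77 (adjusted p = 0.0184), whereas Tnni1 at 2.54 (0.0722) and Tnnc1 at 2.05 (0.094) did not.

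The slow myosin subunits were less even between replicates. Myl2, the slow regulatory light chain, read 232, 41.4, 971, 421 and 103 on the wild-type arrays and 5912, 8028, 2953 and 3017 on the knockout arrays, with no overlap and a difference of 4.36 (SE 0.70). Myh7, the slow heavy chain, read 81.3, 89.7, 907, 282 and 11.3 on the wild-type arrays and 2839, 2419, 733 and 1141 on the knockout arrays. Here wild-type replicate 3, at 907, lay above knockout replicate 3, at 733, so the groups overlapped, and the difference was 3.50 (SE 0.90, adjusted p = 0.00719). Neither was called with the control term, at 3.25 for Myl2 (0.101) and 3.77 for Myh7 (0.142).

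Among Z-disc and calcium store proteins of slow and cardiac muscle, Myoz2 (calsarcin-1, which tethers calcineurin to the Z-disc) read 2817, 1742, 2861, 1158 and 1685 on the wild-type arrays and 11183, 14722, 13645 and 11907 on the knockout arrays. Casq2, the slow and cardiac calsequestrin, read 914, 708, 753, 590.0 and 572 on the wild-type arrays and 1945, 3149, 2358 and 2199 on the knockout arrays. Both were higher on all 4 knockout arrays, by 2.75 (SE 0.25) and 1.74 (SE 0.27), and Myoz2 kept its call with the control term (2.21, adjusted p = 0.00646) while Casq2 did not (0.75, 0.198).

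Not every slow gene followed. The slow tropomyosin Tpm3 differed by -0.42 (adjusted p = 0.184), 2 of its 5 tested probe sets had that sign, and the mean over its probe sets gave 1.03, which was called. The light chain Myl3 differed by -0.81 (0.207), and Csrp3, a muscle LIM protein, Ckmt2, the mitochondrial creatine kinase, and Lmod2, a leiomodin, by 0.033, 0.0099 and -0.030. Fhl2, a LIM protein of heart and muscle, differed by 0.66 (adjusted p = 0.382) and was called lower with the control term, at -2.13 (0.016). In adult muscle the same contrast gave 5.41 for Sln (limma adjusted p = 3.99e-07), 1.58 for Tnnt1 (0.0255), 0.71 for Atp2a2 (0.0614) and -0.31 for Myl2 (0.786). These adult values are without the control term. The difference between the ages was fitted with it, so it is not the gap between the aged and adult values given. That difference did not pass the test for any of the 9, as with Myl2 at 2.89 (adjusted p = 0.397) and Atp2a2 at 2.18 (0.215).

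**Figure D3:**
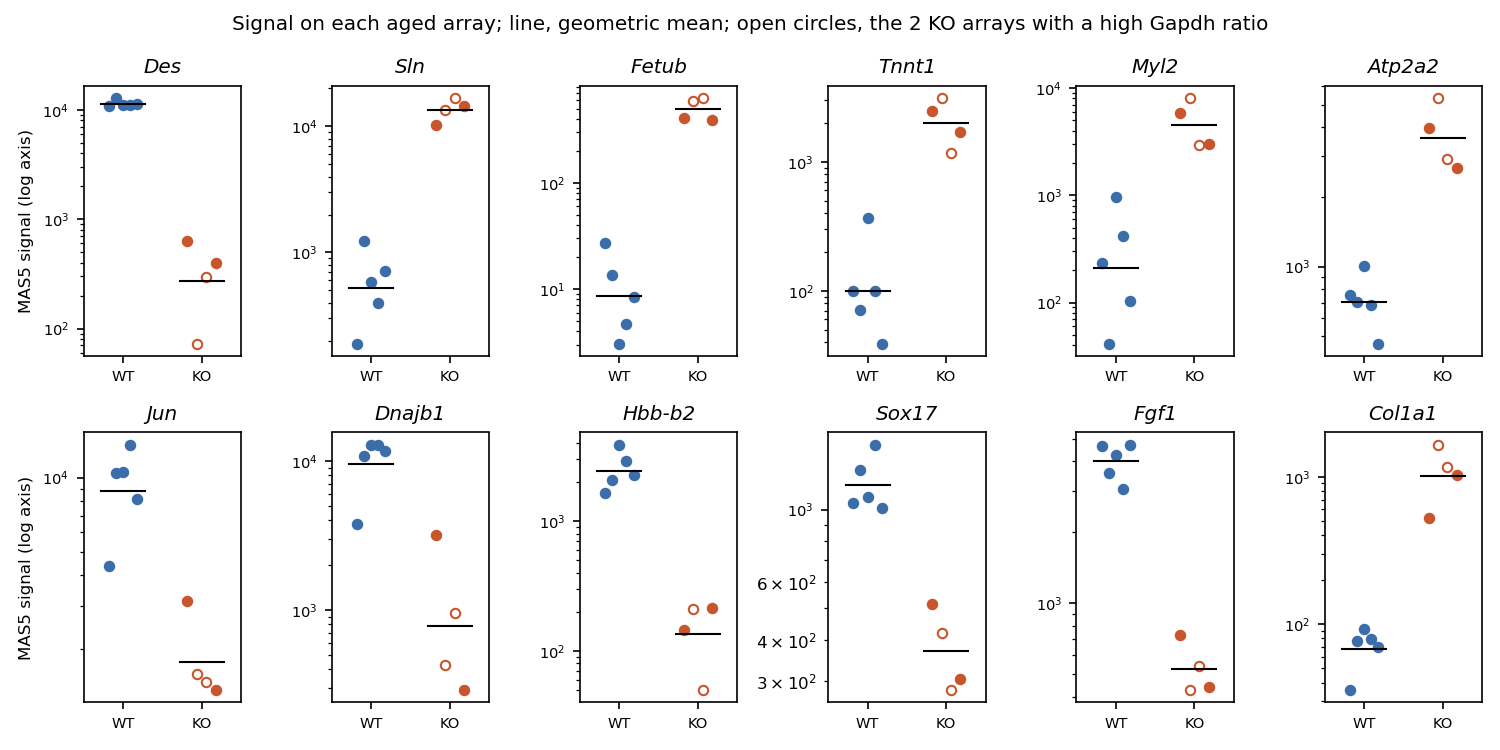
MAS5 signal (log axes, which differ between panels) of 12 genes on the 5 wild-type (blue) and 4 knockout (orange) aged arrays, with the geometric mean of each group as a line; open circles are knockout replicates 2 and 3. The knockout lies apart below the wild-type for Des, Jun, Dnajb1, Hbb-b2, Sox17 and Fgf1 and apart above it for Sln, Fetub, Tnnt1, Myl2, Atp2a2 and Col1a1.

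Promoter sequence is shown for 2 slow genes that rose and hold a MEF2 motif, the site family of the factor that, with calcineurin, drives slow fibre genes. The 150 bases before the start are given 5′ to 3′ from RefSeq on GRCm38.p6, with the motif in capitals: Myoz2 on the minus strand at chr3:123034988-123035137 and Casq2 on the plus strand at chr3:102086265-102086414.
Myoz2: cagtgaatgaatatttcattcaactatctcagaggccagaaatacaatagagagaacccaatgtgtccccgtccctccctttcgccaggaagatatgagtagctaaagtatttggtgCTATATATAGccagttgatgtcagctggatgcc
Casq2: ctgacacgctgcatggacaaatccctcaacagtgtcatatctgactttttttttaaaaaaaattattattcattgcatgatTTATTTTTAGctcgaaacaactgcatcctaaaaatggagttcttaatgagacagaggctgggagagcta
The motif begins 33 bases before the start in Myoz2 and 69 bases before it in Casq2. The MEF2 motif was searched on both strands over the 250 bases before the start. It was found in 3 of the 13 tested slow genes with a promoter entry. These were 2 of the 7 called ones and Fhl2, which was not called. It was in 2.17% of the 6084 tested genes that have an entry and in 3.42% of the 27025 genes of the table. Of 25 tested immediate early genes with an entry, 4 held it. The E-box CANNTG, the letters bound by myogenic factors, was in all 13 slow genes with an entry and in 61.0% of tested genes. A match is a description of letters and no evidence of binding. It does not tell a MEF2 site from another element that fits the same letters, such as a TATA box. The Myoz2 match holds a TATATATA run close to the start.

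Of 16 fast fibre genes tested 2 rose and none fell, where 16.9% of all genes tested were called higher and 12.5% lower. Their median was 0.038. Myh2, the heavy chain of fast oxidative fibres, read 8813, 9392, 11012, 3480.3 and 6009 on the wild-type arrays and 17828, 22032, 19474 and 21839 on the knockout arrays. Knockout arrays were all above wild-type arrays and the difference was 1.47 (SE 0.27, adjusted p = 7.14e-04), though 1.19 with the control term did not pass (0.126). Atp2a1, the fast calcium pump, rose by 0.47 (adjusted p = 0.00467). The main fast heavy chain gene Myh4 differed by -0.0095 (adjusted p = 0.954).

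Of the developmental and cardiac sarcomere genes 12 were measured but 5 were tested, with 2 rises and 1 fall. Embryonic myosin (Myh3), made in regenerating fibres, read 48.6, 122, 68.4, 56.6 and 69.1 on the wild-type arrays and 216, 395, 206 and 254 on the knockout arrays. The groups did not overlap, the difference was 1.73 (SE 0.31), and it was 2.27 with the control term (adjusted p = 0.0178). Cardiac α-actin (Actc1), also made in developing and regenerating skeletal fibres, read 6447, 7988, 6732, 8187 and 8479 on the wild-type arrays and 1147, 1876, 2614 and 979.5 on the knockout arrays. It fell by 2.35 (SE 0.25) and stayed called at -1.75 with the control term. Cardiac troponin T (Tnnt2) rose by 1.47, was not called with the control term (1.54, adjusted p = 0.0824) and read 487 on knockout replicate 3 against 144 to 236 on the other knockout arrays.

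Of 31 Z-disc and costamere genes tested 6 rose and 4 fell, shares near the 16.9% and 12.5% of all genes tested, with a median of 0.079. Actn2, an alpha-actinin of the Z-disc, read 8348, 6786, 8839, 6160.2 and 5796 on the wild-type arrays and 14985, 14794, 14728 and 14959 on the knockout arrays. The 4 knockout values were nearly equal and all above wild-type, a difference of 1.07 (SE 0.15) that was 0.96 with the control term (adjusted p = 0.038). Pdlim7, a Z-disc PDZ-LIM protein, was lower on all knockout arrays, with a difference of -0.71 (SE 0.15) and -1.21 with the control term. The sarcoglycans Sgca and Sgcb, parts of the dystrophin complex, rose by 0.86 and 0.97, and Sgcb alone of the 2 kept its call with the control term. Filamin C (Flnc), an actin crosslinker of the Z-disc, read 19034, 18292, 15548, 16131 and 17174 on the wild-type arrays and 18479.7, 3609.9, 4276 and 6310.1 on the knockout arrays. Knockout replicate 1 lay within the wild-type range and the other 3 far below it, a difference of -1.44 that was -0.81 with the control term (adjusted p = 0.41). Integrin-linked kinase (Ilk) rose by 1.42 and was 0.10 there (0.878).

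Stretch-responsive ankyrin, LIM and Xin genes, which are induced by eccentric load, gave 2 falls and no rise among 7 tested, with a median of 0.033. Ankrd1, a titin-binding ankyrin repeat protein, read 17654, 20816, 19093, 16075 and 18605 on the wild-type arrays and 18076, 5877, 13857 and 7228 on the knockout arrays. Xirp1, an actin-binding protein of injured fibres, read 14309.9, 16858, 15783, 15694 and 17205 on the wild-type arrays and 15175, 7952, 10901 and 7347 on the knockout arrays. Knockout replicate 1 lay within the wild-type range for both genes while replicates 2 and 4 were lowest, and the differences of -0.93 and -0.73 (adjusted p = 0.0404 and 0.0463) were not called with the control term or without the 2 arrays.

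In calcium handling 4 of 18 tested genes rose and 4 fell. Cacng1, the gamma subunit of the muscle calcium channel, read 3085, 3289, 2565, 3072 and 3148 on the wild-type arrays and 5488, 6764, 6096 and 5014 on the knockout arrays. It was higher on every knockout array by 1.02 (SE 0.12), at 0.96 with the control term (adjusted p = 0.0121) and 1.004 in adult muscle (1.25e-05). Rcan1, a calcineurin inhibitor that calcineurin itself induces, read 10260.2, 12402, 12249.9, 14390.4 and 14094 on the wild-type arrays and 5521, 3976, 4754 and 3320.2 on the knockout arrays. It was lower on every knockout array, with a difference of -1.56 (SE 0.27), and at -1.39 with the control term it did not pass (adjusted p = 0.0765). Cacna2d1, a subunit of the same channel, fell by 1.93 and was 0.73 with the control term (0.671).

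Of the myogenic factors and satellite cell genes 4 of 11 tested rose and 3 fell. Myod1, the determination factor of activated satellite cells, read 1969.9, 2552, 2694, 2392 and 2086 on the wild-type arrays and 1604, 857, 1013 and 922 on the knockout arrays. It fell by 1.14 (SE 0.18), was -1.20 with the control term (adjusted p = 0.0307) and -1.12 in adult muscle (2.98e-04). Ncam1, a cell adhesion molecule of satellite cells and denervated fibres, rose by 1.33, and Myf6 fell by 0.61, neither called with the control term. Pax7 and Myf5, which define satellite cells, were too dim to be tested, and Cdh15 rose by 0.59 and was -0.0090 with the control term.

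Among denervation and neuromuscular junction genes 4 of 11 rose and 2 fell, and none was called with the control term. The acetylcholine receptor subunits Chrne and Chrna1 rose by 1.32 and 1.18 and acetylcholinesterase (Ache) by 1.41. Runx1, a transcription factor induced by denervation and injury, read 1419.9, 2084, 1391, 1429 and 1666 on the wild-type arrays and 719, 72.1, 138 and 306 on the knockout arrays. Knockout replicates 2 and 3 were the lowest arrays, and the difference of -2.80 turned to 0.73 with the control term.

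Growth and wasting regulators gave 3 rises and 5 falls of 19. The mTOR inhibitor Ddit4 fell by 1.14 and the activin receptor Acvr2b rose by 0.84, and these 2 kept their calls with the control term (-1.91 and 1.49, adjusted p = 0.0248 and 0.0243). The atrogene ubiquitin ligase Fbxo32 fell by 1.66, was lowest on knockout replicate 2 at 592, and was -0.14 with the control term. Follistatin (Fst), the myostatin and activin antagonist, read 246, 174, 170.3, 172 and 153 on the wild-type arrays and 441, 274, 337 and 338 on the knockout arrays. It rose by 0.84 (SE 0.22), was 2.33 in adult muscle (adjusted p = 1.51e-06) and 0.70 with the control term (0.255).

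Immediate early genes, transcribed within minutes to hours of a stimulus, were the list with the most falls: 17 of 32 tested fell, none rose, and the median was -1.29. Without knockout replicates 2 and 3, 16 fell and the median was -1.50. The median was -0.86 with the control term, where 1 gene was called, Gadd45g.

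Jun, a subunit of AP-1, read 4362, 10394, 10558, 13601 and 8179 on the wild-type arrays and 3155, 1589, 1482 and 1367 on the knockout arrays. Every knockout array was below every wild-type array, knockout replicate 1 standing nearest, and the difference was -2.35 (SE 0.35), or -2.01 with the control term (adjusted p = 0.0559). Arc, an activity-regulated gene, read 284, 708, 689.9, 1162 and 740.3 on the wild-type arrays and 133, 17.4, 41.0 and 19.7 on the knockout arrays, and Btg2, an antiproliferative factor, read 5838, 7395, 7507, 7629 and 7897 on the wild-type arrays and 2180.4, 619.8, 695 and 320.3 on the knockout arrays. Both fell without overlap, with differences of -4.11 (SE 0.74) and -3.31 (SE 0.53) and with replicate 1 again the highest knockout array. Gadd45g, a growth arrest factor, fell by 2.08 and was -2.13 with the control term (adjusted p = 0.0493). Klf4, Atf3 and Myc fell by 1.86, 1.66 and 1.27, whereas Fos at -1.54 (adjusted p = 0.0786), Egr1 at -1.15 (0.0611) and Dusp1 at -0.10 did not pass. In adult muscle the list's median was -0.08, with 4 falls and no rise.

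Of 33 cytosolic chaperones and heat shock genes 12 fell and 5 rose, with a median of -0.43. Without knockout replicates 2 and 3 the calls were 4 lower and 1 higher, and with the control term 2 lower and none higher, at a median of -0.22. Several that fell are stress-inducible. Dnajb1, the main partner of Hsp70 in disaggregation, read 3749, 10769, 12766, 12859.8 and 11707 on the wild-type arrays and 3181, 424, 951 and 289 on the knockout arrays. Hspa1a, the inducible Hsp70 (whose near-identical copy Hspa1b can share its probes), read 14154, 20528, 18981, 18948 and 19421 on the wild-type arrays and 10639, 1989.9, 7563 and 1073 on the knockout arrays, and Hsp90aa1, the inducible Hsp90, read 12799, 19425, 17399, 14977 and 16965 on the wild-type arrays and 6967, 2020.0, 3493 and 3013 on the knockout arrays. For all 3 the knockout arrays lay below the wild-type arrays and differed widely among themselves, with replicate 1 highest, and the differences were -3.64 (SE 0.72), -2.41 (SE 0.62) and -2.25 (SE 0.64). Under the control term they were -3.28, -2.52 and -0.066 (adjusted p = 0.119, 0.155 and 0.973).

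Hspb2, a small heat shock protein of muscle, read 6710.3, 5949, 6085, 6595 and 5246 on the wild-type arrays and 3435, 2869, 3681 and 2173 on the knockout arrays. It was called in all 3 fits, at -1.01 (SE 0.20), -1.19 with the control term (adjusted p = 0.0497) and -1.10 without the 2 arrays, and it was -0.88 in adult muscle (0.0045). The 5 rises, of at most 0.69, held Tcp1 (0.58) and Cct8 (0.32) of the cytosolic chaperonin and the Hsp90 co-chaperone Fkbp4 (0.67, but -0.49 with the control term). Stip1, another co-chaperone, differed by -0.43 and was called lower with the control term (-1.33, 0.0133).

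The heat shock motif GAANNTTC, the letters that heat shock factor binds, was found within 250 bases of the start in 11 of the 28 tested chaperones with an entry (39.3%), in 6.38% of tested genes with one and in 7.73% of all genes in the table, on either strand. Among called genes it was in Hspa1a, Dnaja1 and Hspe1, which fell, and in Dnajb6 and Fkbp4, which rose. The 150 bases before the start are shown for 2 that fell, from RefSeq on GRCm38.p6 with the motif in capitals: Hspa1a on the minus strand at chr17:34972157-34972306 and the first start of Dnaja1, an Hsp40 that fell by 2.19, on the plus strand at chr4:40722318-40722467.
Hspa1a: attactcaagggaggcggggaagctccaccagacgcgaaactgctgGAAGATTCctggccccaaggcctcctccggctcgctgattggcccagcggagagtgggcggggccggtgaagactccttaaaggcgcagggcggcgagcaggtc
Dnaja1: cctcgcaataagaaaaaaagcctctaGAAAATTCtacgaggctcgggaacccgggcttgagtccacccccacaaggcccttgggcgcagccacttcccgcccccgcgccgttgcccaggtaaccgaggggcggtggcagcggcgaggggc
The motif begins 104 bases before the start in Hspa1a and 124 bases before it in Dnaja1. Dnajb1 and Bag3, which fell too, do not hold these letters in their windows.

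Targets of the endoplasmic reticulum stress and ATF4 pathways moved apart, 6 of 25 rising and 7 falling. Trib3, a pseudokinase induced by ATF4, read 47.9, 52.3, 50.7, 47.9 and 15.9 on the wild-type arrays and 190.0, 229, 379.6 and 249.96 on the knockout arrays. All knockout arrays were above all wild-type arrays, and the difference was 2.40 (SE 0.32) and 2.36 with the control term (adjusted p = 0.0213). In adult muscle, without the term, it was -0.21 (0.666). The difference between the ages, fitted with the term, was 2.55 and did not pass (0.215). Asns, asparagine synthetase, read 501, 352, 359, 511 and 329 on the wild-type arrays and 960.4, 1266, 2538 and 1251 on the knockout arrays and rose by 1.72 (SE 0.30), at 1.58 with the control term (0.0714). Chac1, a glutathione-degrading target of the same factor, went the other way, at -1.67 (SE 0.29), as did the lumenal chaperones Dnajc3 (-1.63) and Sdf2l1 (-2.39).

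Clock genes gave 2 rises and 3 falls of 14, none called with the control term. The output factors Tef and Dbp rose by 0.92 and 1.09, and Per1, Per2 and Nfil3 fell by 2.44, 1.83 and 1.66. Per2 was 0.23 with the control term. Of 20 oxidative stress genes 1 rose and 2 fell; Srxn1, the sulfiredoxin that repairs peroxiredoxins, read 6329, 6456, 7622, 6503 and 7432 on the wild-type arrays and 3225, 1254, 1691 and 1148 on the knockout arrays and fell by 2.04 (SE 0.38), -1.84 with the control term (0.0943).

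Red cell genes were mostly lower in the knockout, and endothelial markers were lower in part. Of 17 tested endothelial markers 8 fell and 1 rose, with medians of -0.53, -0.59 with the control term and -0.60 without the 2 arrays. Their summed signal was 12951 to 15371 on wild-type and 8621 to 10943 on knockout arrays, without overlap, and no marker was at the lowest value of an array.

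Sox17, a transcription factor of arterial endothelium, read 1050.0, 1319, 1092, 1577 and 1009 on the wild-type arrays and 514, 421, 281 and 305 on the knockout arrays. It was lower on every knockout array, with a difference of -1.72 (SE 0.24) and -1.52 with the control term (adjusted p = 0.0385). Its relative Sox18 fell by 0.94, the water channel Aqp1 by 0.54 and VE-cadherin (Cdh5) by 1.26, of which Sox18 and Aqp1 were called with the control term. Tek at -0.076 and Kdr at -0.27 were not called, and the receptor Tie1 rose by 0.85. Other markers had overlapping ranges that reached higher in the knockout. Vwf read 177 to 399 on wild-type and 306 to 707 on knockout arrays, Emcn 257 to 379 and 281 to 501, and Ramp2 501 to 654 and 351 to 908. Pecam1 (CD31) differed by 0.23 (adjusted p = 0.611) and was called lower with the control term, at -1.28 (0.0273). Outside the endothelial list, 2 genes of the stable set are named here. Tmem100, an endothelial membrane protein, fell by 2.15, and caveolin-1 (Cav1), which coats endothelial caveolae, fell by 0.93. With the control term they were -3.16 and -0.92 (adjusted p = 2.80e-04 and 0.0297). Among 8 smooth muscle and pericyte markers 3 fell, Pdgfrb (-1.26), Notch3 (-0.80) and Mcam (-0.68), of which Notch3 was called with the control term (-0.94), and Smtn rose by 0.92 and was -0.14 with the control term. In adult muscle 14 of the 17 endothelial markers fell.

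Red cell genes had the lowest median of the lists. Of 13 listed genes 9 were measured and 6 tested, and 5 fell: the median was -2.29, -2.55 with the control term and -2.01 without the 2 arrays. Beta-globin (Hbb-b2, whose close copies can share its probes) read 1651, 2081, 3879, 2894 and 2254 on the wild-type arrays and 145, 211, 49.8 and 214 on the knockout arrays. Slc4a1, the anion exchanger of the red cell membrane, read 300.2, 371, 527, 208 and 365 on the wild-type arrays and 60.6, 59.6, 53.8 and 74.4 on the knockout arrays, and Car2, a carbonic anhydrase of red and other cells, read 583, 497, 661, 394 and 556 on the wild-type arrays and 119, 156, 65.5 and 119 on the knockout arrays. No knockout array reached the wild-type range for any of the 3, and the differences were -4.19 (SE 0.82), -2.42 (SE 0.39) and -2.28 (SE 0.22). Fitted with the control term they were -6.45, -2.86 and -2.24 (adjusted p = 0.00986, 0.0203 and 0.00569). Alas2, the first enzyme of haem synthesis in red cell precursors, fell by 2.30, whereas Fech, the last enzyme of that pathway in all cells, differed by -0.038. The summed signal of the list was 10696 to 18616 in wild-type and 5556 to 8165 in knockout samples, without overlap. Fech is part of this sum, at 3869 to 5826 in wild-type and 3384 to 5120 in knockout samples, so the sum is not of red cells alone.

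Markers of white cells did not pass the test. None of 4 neutrophil and none of 12 macrophage markers was called in any of the 3 fits. S100a8, a calprotectin subunit of neutrophils, read 4354, 1156, 1385, 4516 and 898 on the wild-type arrays and 4516, 2979, 5008 and 2308 on the knockout arrays, and the groups overlapped. The summed neutrophil signal was 2577 to 13267 in wild-type and 7035 to 12817 in knockout samples, and that of macrophages 3942 to 13646 and 7460.0 to 13168. None of 8 T and B cell markers measured was bright enough to be tested. Of 9 complement and acute phase genes C1s1, C1ra and Serping1 rose by 1.004, 1.12 and 1.01 and Lcn2 fell by 1.56, none with the control term. Of 20 chemokine and cytokine genes 2 rose and 4 fell, among them the chemokines Ccl8 (1.63) and Cxcl10 (-2.64), and none was called with the control term.

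Interferon and antigen presentation genes gave 2 rises and 2 falls of 16, none with the control term. Their median was 0.25, and -0.13 with the control term. The genes detailed next all fell, and the list's 2 rises are not among them. Rsad2, the antiviral protein viperin and a member of the list, read 625, 613, 1183, 379 and 766 on the wild-type arrays and 143, 290.0, 124 and 272 on the knockout arrays. Plscr1, a phospholipid scramblase that belongs to no list, was in the stable set and read 741, 545, 397, 806 and 1103 on the wild-type arrays and 80.3, 89.8, 67.0 and 82.5 on the knockout arrays. Ube2l6, the conjugating enzyme for ISG15, was also in the stable set, outside the lists, and read 158, 193, 372, 278 and 232 on the wild-type arrays and 18.3, 64.3, 5.51 and 50.0 on the knockout arrays. The groups did not overlap for any of them. The differences were -1.80 (SE 0.43) for Rsad2, -3.05 (SE 0.32) for Plscr1 and -3.11 (SE 0.60) for Ube2l6. With the control term Plscr1 (-2.97) and Ube2l6 (-3.75) were called and Rsad2 was not (-1.60, adjusted p = 0.188).

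Adipocyte, tendon and nerve markers were few. Fabp4, a fatty acid carrier of adipocytes and capillaries, fell by 0.97 and was -0.085 with the control term, while adiponectin (Adipoq), which defines adipocytes, differed by 0.21 (adjusted p = 0.86). None of 3 tendon markers was called, and of 3 Schwann cell markers Mbp and Pmp22 rose by 1.20 and 0.91, neither with the control term, with Sox10 at -0.10.

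Collagen genes rose without the control term but not with it. Of 27 tested 9 rose and none fell, with a median of 0.59; without the 2 arrays 3 rose, and with the control term none did, Serpinh1, the collagen chaperone, was called lower (-1.47) and the median was -0.16. Col1a1, the α1 chain of type I collagen, read 35.6, 76.8, 93.2, 78.7 and 70.3 on the wild-type arrays and 528, 1649, 1173 and 1036 on the knockout arrays, a difference of 3.71 (SE 0.69) with no overlap. In adult muscle it read 2354, 2315, 3161, 1622 and 1222 on the 5 wild-type arrays and, on the knockout arrays, 2178, 769, 106, 83.8 and 160.2, of which the last 3 carry control signal. Col1a1 was thus at most 160.2 on all 8 arrays with control signal and at least 528 on all 11 without, and the difference with the control term was 0.30 (adjusted p = 0.801). Col3a1 rose by 1.85 and was 1.14 with the control term (0.136).

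Of 43 other matrix genes 9 rose and 6 fell, shares near the 16.9% and 12.5% of all genes tested. Nephronectin (Npnt), an integrin ligand of basement membranes, read 73.4, 44.2, 89.2, 68.0 and 45.0 on the wild-type arrays and 498, 749, 700.0 and 584 on the knockout arrays. It was higher on all knockout arrays by 3.14 (SE 0.25) and by 2.30 with the control term (adjusted p = 0.00247). The laminin chains Lama2 and Lamc1 of the fibre's basement membrane rose by 1.21 and 1.34 and were 1.31 and 1.49 with the control term (0.0152 and 0.0366). Timp4, an inhibitor of matrix metalloproteinases, read 1417, 1777, 3013, 2642 and 3009.8 on the wild-type arrays and 438, 858, 183 and 255 on the knockout arrays and fell by 2.67 (SE 0.39), -2.31 with the control term (0.049). Mmp2, a gelatinase, rose by 1.38 and was 0.36 with the control term (0.546).

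Serpins and S100 proteins rose, 7 of 11 tested with no fall, at a median of 1.15 (0.78 with the control term, where 2 were called higher and Serpinh1 lower). Serpinb1a, an inhibitor of neutrophil proteases, read 921, 691, 548, 526 and 352 on the wild-type arrays and 2784, 3943, 5031 and 6547 on the knockout arrays. Serpinb6a, a broad intracellular serpin, read 4136, 4981, 4446, 4806 and 4488 on the wild-type arrays and 9254, 10157, 10810.2 and 9936 on the knockout arrays. Both lay apart from wild-type, by 2.94 (SE 0.33) and 1.19 (SE 0.12), kept their calls with the control term (2.62 and 1.10) and were 2.81 and 1.59 in adult muscle. Serpina3n, an acute phase serpin with close relatives, rose by 1.96 and was 0.91 with the control term (adjusted p = 0.327).

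Most genes of energy metabolism did not pass the test. Of 25 glycolysis and glycogen genes 6 rose and none fell, of 27 fatty acid genes 8 rose and none fell, and of 30 genes of the citric acid cycle and mitochondrial regulation 6 rose and 1 fell, where 16.9% of all genes tested were called higher and 12.5% lower. The medians were 0.13, 0.15 and 0.14, close to the 0.07 over all genes. With the control term the 2 aspartate aminotransferases Got1 and Got2 were the called rises among these 3 lists, and Gpd1 (-1.49) and Echs1 (-1.25) were called lower. The 58 respiratory chain genes gave 5 rises and 5 falls. Got1, the cytosolic aspartate aminotransferase, read 4559, 3579, 5853, 3627 and 4339 on the wild-type arrays and 9703, 14136, 14148 and 10461 on the knockout arrays and rose by 1.52 (SE 0.17). Its mitochondrial partner Got2 rose by 0.98, and with the control term they were 0.97 and 0.81 (adjusted p = 0.0291 and 0.0389). Gpt2, the mitochondrial alanine aminotransferase, moved the other way: it read 1759, 2448, 2858, 3119 and 3429 on the wild-type arrays and 417, 632, 518 and 453 on the knockout arrays, a fall of 2.44 (SE 0.29) that was -2.90 with the control term (adjusted p = 0.00483). Without the control term, pyruvate kinase (Pkm) rose by 1.38 in aged muscle and was -0.78 in adult muscle. In aged muscle it was 0.66 under the term (0.0605). Pdk2, a pyruvate dehydrogenase kinase, was 2.45, -1.99 and 0.22 in the same order. Control signal ran opposite ways in the aged and adult contrasts, and its part in these values was not tested.

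Protein breakdown genes were described in 2 lists. Of 26 autophagy and lysosome genes 10 rose and 1 fell, at a median of 0.54 (0.13 with the control term, where Lamp1, a lysosomal membrane protein, was called), with 8 called higher without knockout replicates 2 and 3. Of 34 proteasome subunits 8 rose and 2 fell, where 16.9% and 12.5% of all genes tested were called in each direction. Of these subunits 3 were called higher without the 2 arrays and none in either direction with the control term, at a median of -0.053. Sqstm1, the p62 receptor that carries ubiquitinated protein and is found in aggregates, read 5394, 4659, 4247, 4262 and 4427 on the wild-type arrays and 11373, 11612, 12708 and 10136 on the knockout arrays. It rose by 1.37 (SE 0.21), was 0.40 with the control term (adjusted p = 0.24) and -0.72 in adult muscle without the term. Cathepsin L (Ctsl) and Ulk1 rose by 0.84 and 1.16. Psmb7, a catalytic subunit, rose by 2.38 and was 0.47 with the control term (0.269).

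Of 29 actin cytoskeleton and membrane repair genes 5 rose and 4 fell, shares near the 16.9% and 12.5% of all genes tested. Annexins, which bind calcium and seal torn membranes, were among the rises, with Anxa6 at 2.05, Anxa5 at 1.44 and Anxa2 at 1.11, and dysferlin (Dysf), the repair protein they work with, rose by 0.60. Cytoplasmic actin (Actb) and myosin (Myh9) fell by 2.22 and 1.29. Cav1 was the called one of these 9 with the control term, where Anxa6 was 0.86 (adjusted p = 0.0763) and Anxa2 1.10 (0.126).

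Of 27 RNA binding and splicing factors 10 fell, none rose and 17 did not pass the test. Their median was -0.56. Without knockout replicates 2 and 3, 3 were called lower, and with the control term none was called and the median was 0.23. Hnrnpl read 675, 648, 619.7, 792 and 569 on the wild-type arrays and 187, 21.6, 10.3 and 33.8 on the knockout arrays. Its 4 knockout values were all below wild-type, replicate 1 highest, with a difference of -4.16 (SE 0.53) and -2.68 under the control term (adjusted p = 0.0589).

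Of replication and cell cycle genes 4 of 18 rose and 4 fell. Mcm6, a subunit of the replicative helicase, read 35.4, 72.3, 34.4, 10.8 and 50.9 on the wild-type arrays and 348, 530.4, 455 and 369 on the knockout arrays and rose by 3.23 (SE 0.31), at 3.11 with the control term (adjusted p = 0.00538). Cyclin D1 (Ccnd1), which drives entry into the cycle, read 560.3, 617, 487, 809 and 649.8 on the wild-type arrays and 233, 169, 171 and 231 on the knockout arrays and fell by 1.63 (SE 0.20), at -1.19 with the control term (0.0379). Mcm7, of the same helicase, rose by 0.73 and was 0.57 there (0.247).

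**Figure D4:**
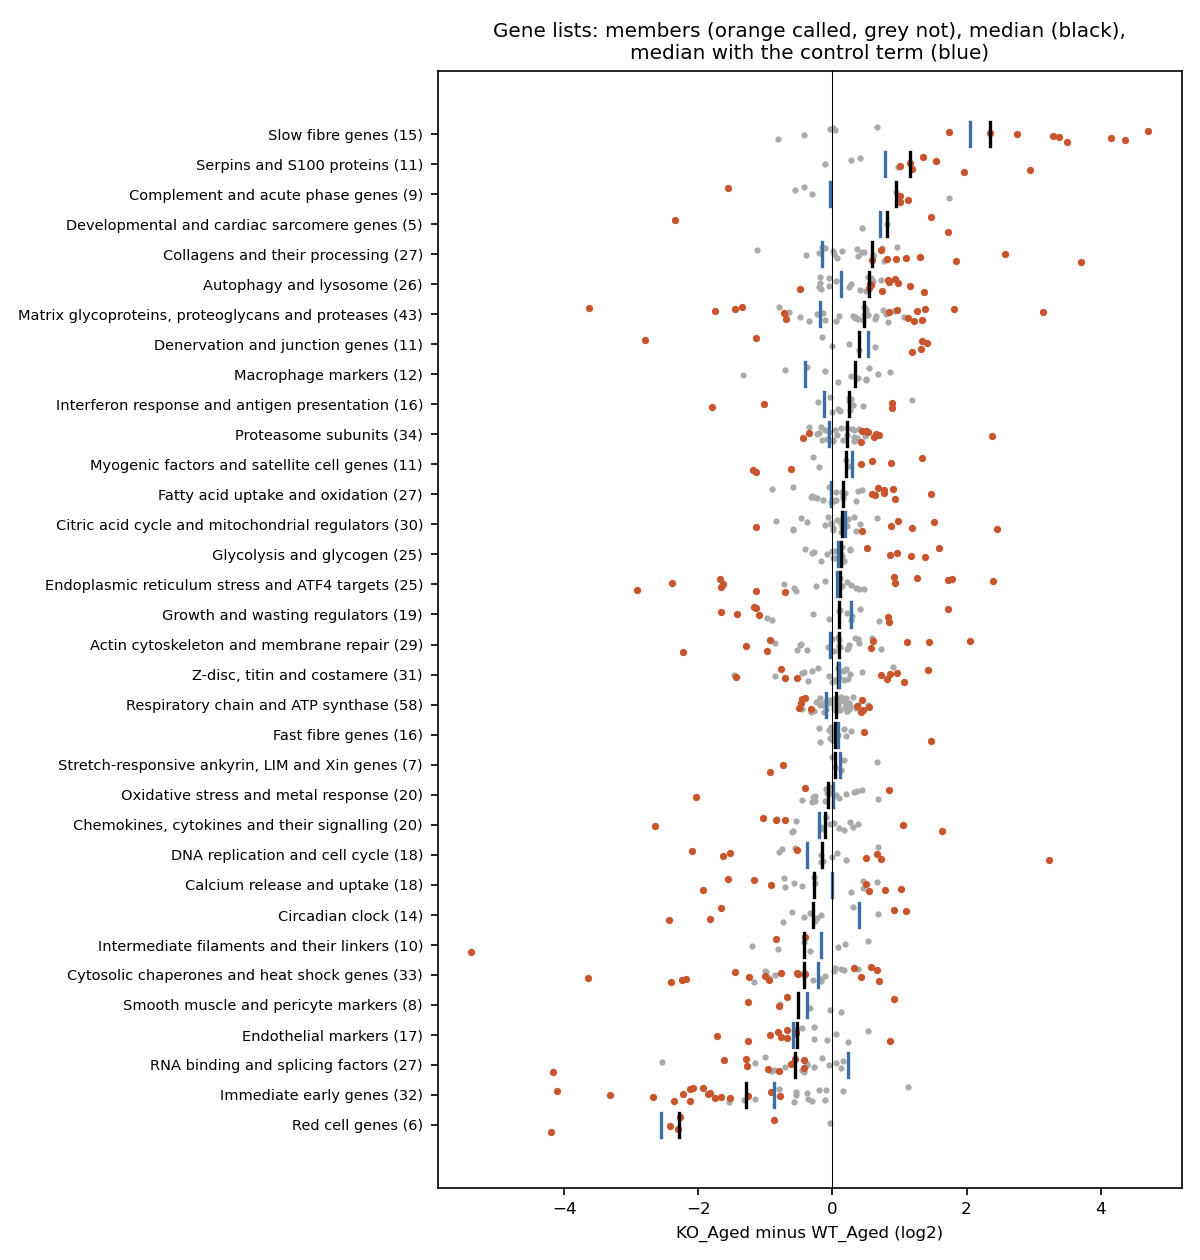
Knockout minus wild-type difference (x axis, log2) of the tested members of each gene list with 5 or more (number in brackets), orange where called and grey where not, with the list's median in black and its median with the control term in blue. Slow fibre genes lie furthest right and red cell genes furthest left with both medians on the same side, while the medians of collagens and of RNA binding factors change side.

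Outside these lists, Fetub rose in the stable set. It encodes fetuin-B, a secreted protease inhibitor known from liver. Its signals were 27.2, 13.6, 3.06, 4.68 and 8.43 on the wild-type arrays and 411, 586, 624 and 389 on the knockout arrays. The wild-type values were at the lower end of the array's range, around the pseudocount of 4.76, and no knockout value was under 389. The size of the log2 difference, and so its place among the rises, therefore depends on the pseudocount: it was 5.30 with a pseudocount of 1 and 3.49 with 32. With 4.76 it was a difference of 4.86 (SE 0.39, adjusted p = 4.27e-07), 3.63 with the control term and 3.57 in adult muscle (7.22e-06). Smtnl1, smoothelin-like 1, a regulator of muscle contraction, read 945, 560.5, 1234, 774 and 660.4 on the wild-type arrays and 5330.2, 5880.2, 4839 and 5690.4 on the knockout arrays and rose by 2.82 (SE 0.31). Slc1a1, a glutamate and cysteine transporter, read 73.9, 76.7, 82.6, 81.5 and 103 on the wild-type arrays and 548, 745, 458 and 493 on the knockout arrays and rose by 2.58 (SE 0.28), with 3.45 under the control term. In each of these every knockout array lay above every wild-type array.

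Il13ra1, a receptor chain for the type 2 cytokines, read 131, 78.0, 106, 114 and 57.5 on the wild-type arrays and 763, 322, 551 and 720.1 on the knockout arrays, and all 4 of its tested probe sets were higher, at 2.47 (SE 0.25). Ift122, of intraflagellar transport, rose by 2.86, Fez1, a kinesin adaptor, by 2.59, Spag5, a spindle protein, by 2.42, and Prune1, a phosphoesterase, by 2.87. Prune1 was 1.33 with the control term and -0.55 in adult muscle (adjusted p = 0.221).

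Among falls of the stable set, Fgf1, a growth factor of muscle and vessels, read 4644, 3585, 4259.9, 3065 and 4711 on the wild-type arrays and 731, 426, 539 and 441 on the knockout arrays. All knockout arrays were below all wild-type arrays, with a difference of -2.96 (SE 0.27), -2.62 with the control term (adjusted p = 0.00569) and -1.92 in adult muscle (8.35e-05). Fzd5, a Wnt receptor, read 293, 553, 340.0, 586 and 389 on the wild-type arrays and 39.96, 12.2, 43.1 and 37.4 on the knockout arrays and fell by 3.73 (SE 0.41), and was -2.71 in adult muscle (2.16e-04). Sphk1, the sphingosine kinase, read 1060.3, 652, 1067, 1403 and 2306 on the wild-type arrays and 259, 64.8, 60.5 and 91.1 on the knockout arrays and fell by 3.56 (SE 0.49), with -2.88 under the control term (0.048).

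Pigu, of the enzyme that attaches GPI anchors, read 3003, 1798, 2386, 2736 and 2614 on the wild-type arrays and 265, 383, 299.5 and 305 on the knockout arrays, and both of its tested probe sets were lower, with a difference of -3.03 (SE 0.29). In adult muscle it was -0.65 (adjusted p = 0.115). Tent5c, a poly(A) polymerase, fell by 2.27, and Clec2d, a lectin-like ligand of NK receptors, by 2.20; their adult differences were -1.62 (0.0356) and -0.063 (0.921).

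In adult muscle 1241 genes were called by genotype (16.7%). Called at both ages were 500 genes, 22.8% of the aged and 40.3% of the adult list, 278 in the same direction (155 higher and 123 lower) and 222 in opposite directions. Control signal ran opposite ways in the 2 contrasts, being present in wild-type samples alone among aged arrays and in 3 knockout samples alone among adult arrays, and its part in the 222 was not tested gene by gene. Of the 190 stable genes 146 had the same sign in adult muscle, 81 were called there in the same direction and 3 in the opposite one. The control term, part of the choice of these genes, was estimated from the adult knockout arrays. These counts therefore describe the set and are no independent support, and the share of the same sign over all genes is not given here. The test of the difference between the ages, with the control term, called 2 genes (0.0269%): Grb14, an insulin receptor adaptor, at -2.57 (adjusted p = 0.048) and Deaf1, a transcription factor, at 2.62 (0.048), with 1229 genes under 0.05 before adjustment. Grb14 read 586, 601, 596, 533 and 617 on the wild-type arrays and 569.7, 769, 657 and 916 on the knockout arrays of aged mice, where it was not called, against 523, 661, 612, 453 and 489 and 1958, 2214, 1117, 1025 and 1405 on adult wild-type and knockout arrays.

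**Figure D5:**
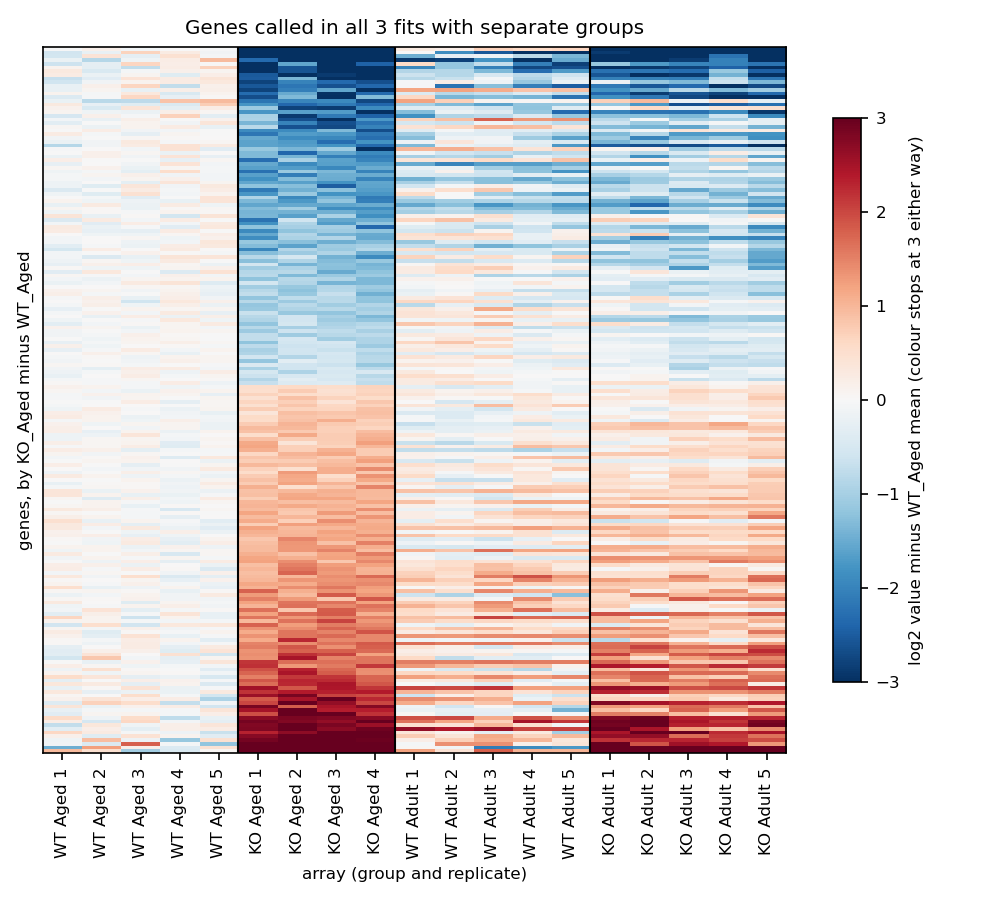
The 190 stable genes (rows, ordered by the aged difference) on all 19 arrays (columns by group), coloured by log2 value minus the aged wild-type mean, red higher and blue lower, with colour ending at 3 either way. The 4 aged knockout arrays are uniform by choice of the genes. The adult knockout arrays, on which the control term used in that choice rests, share the sign of many rows, 81 of them called in the same direction.

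Genes whose call turned sign with the control term were described separately. The largest such falls were Sp3, a transcription factor (-2.87 to 0.36), Runx1, Ppig, a nuclear cyclophilin (-2.21 to 1.01), Jmjd1c, a demethylase-family protein (-2.20 to 0.24), and Atp13a3, a polyamine transporter (-2.12 to 1.33). Sp3 read 786, 978, 554, 532 and 774 on the wild-type arrays and 419.7, 26.9, 49.3 and 141 on the knockout arrays, where knockout replicates 2 and 3 were lowest and replicate 1 stood nearest to wild-type. The largest such rises were Trim35 (3.06 to -0.22), Slc29a1 (2.12 to -0.72), Smn1 (1.90 to -0.27), Asb15 (1.79 to -0.18) and Arfip2 (1.70 to -0.30). None of the 10 was called in either direction with the term.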

How the data were processed

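The deposited values are probe set intensities on a linear scale that the authors computed by MAS5, as the submitters' processing notes say, with version and scaling not given in the sources used here. Of 22690 probe sets 64 were controls. With the platform annotation 20380 named 1 symbol, 691 several and the rest none; genes with 1 symbol (12393) were represented by the probe set of highest mean. A pseudocount of 4.76, the 10th percentile of all values, was added before log2, arrays were quantile normalised, and the 60% of genes with the highest mean over all 19 arrays (7436) were tested. limma 3.58.1 in R 4.3.3 fitted group means on all 19 arrays with Benjamini-Hochberg adjustment, calls being made at 0.05. Signals printed are as deposited, while differences are on the log2(value + pseudocount) scale, which understates changes of dim genes. The control term marks arrays whose dap poly-A signal exceeds 100; adding it to the aged difference amounts to adding the adult knockout difference between arrays with and without control signal. The fit was run on simulated data in which each gene's shift with control signal was the same in every group. No simulated array had a high Gapdh ratio, so that run checks the code and not these limits of the data. Named genes were Des, the 15 largest rises and falls of the stable set, up to 5 members per list by smallest p (3 for other cell types), the 5 largest in each direction that turned sign, the largest called by the age test, and all filament genes; clone-style symbols were passed over. Tnni1, Casq2, Myl2, Myh7, Tpm3, Myl3, Hspa1a, Hsp90aa1 and other list members named with their differences were added after their values were seen. The comparison, the gene lists and the rule were chosen with earlier results of these data known. Alternatives were normalisation, pseudocount, filter, probe set summary, arrays used, control term, Gapdh ratio, eBayes settings, array weights and thresholds. The number of arrays limits the precision; scanner intensities and array batches were not used here. Replicate numbers are in accession order and only name arrays. Promoters are from RefSeq on GRCm38.p6.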

Additional observations from a re-analysis of the deposited data

Results flagged for a closer look

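Of 430 groups of array signals examined (215 named genes in 2 aged groups), 21 had a single array standing apart by Dixon's criterion, given here as the array's gap to its neighbour over the group's range on the normalised log2 scale; chance gives about 1 in 20 groups. Among knockout arrays, replicate 2 was the lowest for Osmr (0.874), Txnrd1 (0.931), Serpina3n (0.845), Psmd2 (0.842) and Sync (0.883) and the highest for Plscr1 (0.853). Replicate 1 was the highest for Jun (0.834) and the lowest for Smtn (0.909), and replicate 3 the highest for Myh8 (0.869). Among wild-type arrays, replicate 1 was the lowest for Dnajb1 (0.787), Dnaja1 (0.744) and Col1a1 (0.800) and the highest for Fst (0.772) and Sqstm1 (0.722). Replicate 3 was the lowest for Cdh15 (0.943) and Fbxo32 (0.914), replicate 4 the lowest for Lamc1 (0.796) and Ppig (0.922) and the highest for Cav1 (0.749), replicate 2 the lowest for Mmp2 (0.950) and replicate 5 the lowest for Trib3 (0.797).

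Grb14 (-2.57) and Deaf1 (2.62) passed the test of a difference between the ages, the interaction term of limma with the control term. No gene passed it with median centring, with no normalisation or without the knockout arrays of high Gapdh ratio.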

How the results depend on the processing

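Desmin kept its direction and call under every alternative, between -5.75 and -3.72. The count of 2190 called genes moved by less than 1.5 times with other normalisations, pseudocounts, dim-gene filters, probe set summaries, eBayes settings and array weights, and with the 9 aged arrays fitted alone. It was 408 with the control term, 1059 without the 2 knockout arrays of high Gapdh ratio, 560 with both, 1099 with the Gapdh ratio as a covariate, 1150 at an adjusted p under 0.01 and 916 with a difference of at least 1 required. With the 9 aged arrays alone and without those 2 arrays, an alternative chosen after seeing the data, it was 2176. Leaving out 1 array gave 1562 (without knockout replicate 3) to 2301 (without knockout replicate 1). The higher share of calls was 57.5%, 52.7% with median centring, 63.8% with no normalisation and 47.0% without the 2 arrays. The causes of these changes were not tested.

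The 2 calls of the age test became 1864 without the control term, 196 with array weights, 7 with the Gapdh covariate, 1 with a pseudocount of 1, and 0 with median centring, no normalisation, a pseudocount of 32, no filter, trend and robust eBayes, an adjusted p under 0.01 or without the 2 arrays; leaving out 1 array gave 0 to 3.

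Of the genes the naming rule gave, 113 lost their call with the control term and these turned sign: Fhl2 (-2.13), Cdh15 (-0.0090), Runx1 (0.73), Smtn (-0.14), Osmr (0.082), Serping1 (-0.073), Slc16a3 (-0.36), Gstm1 (-0.34), Per2 (0.23), Tardbp (0.10), Sp3 (0.36), Ppig (1.01), Jmjd1c (0.24), Atp13a3 (1.33), Trim35 (-0.22), Slc29a1 (-0.72), Smn1 (-0.27), Asb15 (-0.18), Arfip2 (-0.30) and Deaf1 (1.03). Of the list members added to the text, Cacna2d1 (0.73) and Fkbp4 (-0.49), called without the term, and Pecam1 (-1.28), called with it, also turned sign. With the term and without the 2 arrays at once these did: Ilk (-0.21), Fhl2 (-2.34), Asph (0.52), Cdh15 (-0.11), Runx1 (1.68), Fbxo32 (0.47), Col1a1 (-0.18), Col4a2 (-0.048), Smtn (-0.35), Osmr (0.22), Serping1 (-0.14), Tapbp (-0.082), Fabp4 (0.17), Slc16a3 (-0.19), Gstm1 (-0.62), Per2 (0.33), S100a1 (-0.059), Tardbp (0.30), Sp3 (1.56), Ppig (2.11), Jmjd1c (1.01), Atp13a3 (2.02), Slc29a1 (-0.56), Smn1 (-0.10), Arfip2 (-0.51) and Hsp90aa1 (0.38). With the mean of a gene's probe sets Ldb3 (-0.068), Osmr (1.17) and Tpm3 (1.03) did.

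No paired analysis was possible because the labels give no replicate numbers. The titles end in codes of unstated meaning; that of knockout replicate 4 begins like those of wild-type replicates 4 and 5, and the codes were not used. The control term rests on 5 adult knockout arrays and raised the median standard error from 0.23 to 0.35, so a call lost with it does not show that a gene did not differ. With 4 and 5 arrays per group, dim genes near background have little precision, and cells of different types were not separated.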
